A study of Mus musculus with 2 samples.

Results

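A small population of myeloid cells in whole mouse mesentery carried transcripts of Lyz1, Ear2, Mmp12 and Fcrls with little or no complement C1q RNA. It was chosen as the cell barcodes with at least 4 unique molecular identifiers (UMIs, each standing for 1 captured RNA molecule) summed over those 4 genes and fewer than 8 summed over C1qa, C1qb and C1qc. Barcodes with over 2 UMIs of Dcn, over 1 of Cdh5 and Cldn5 or any of Cd3e and Cd79a were left out, as were barcodes with under 200 genes or over 10% mitochondrial UMIs. The rule found 76 members among 3143 barcodes. Library 1 gave 38 members of 1484 barcodes, which is 2.56% with an exact 95% Clopper-Pearson interval of 1.82 to 3.50%. Library 2 gave 38 of 1659, which is 2.29% with an interval of 1.63 to 3.13%. Such intervals cover counting error only. The tissue came from 2 untreated wild-type male mice of the inbred strain C57BL/6N, was dissociated with Liberase DH in medium with serum albumin, and was captured on the Chromium system with version 2 chemistry, 1 library per mouse. The labels carry a birth date and no harvest date, so no age is stated. Both animals form 1 group, so the comparisons were made between barcodes of the same libraries: the members against C1q-high macrophages (253 barcodes with at least 8 C1q UMIs and the same exclusions, 124 and 129 by library) and against a dendritic gate (45 barcodes with at least 2 UMIs of Flt3, Cd209a, Xcr1, Clec9a and Zbtb46, 19 and 26 by library). The dendritic gate had the same exclusions and was filled after the other classes. Its barcodes therefore had fewer than 4 UMIs of the rule genes and fewer than 8 of C1q.

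Mononuclear phagocytes of serous tissues fall broadly into resident macrophages, which clear debris and carry scavenger receptors and complement C1q, macrophages and antigen-presenting cells that monocytes from blood replace through the chemokine receptor CCR2, and dendritic cells, which carry antigen to lymph nodes. Lysozyme, encoded in mice by the neighbouring genes Lyz1 and Lyz2, breaks down bacterial cell walls, and Lyz2 is widely used as a myeloid gene. Ear2 encodes a secreted ribonuclease of the eosinophil-associated family, Mmp12 encodes macrophage elastase, Fcrls encodes an Fc receptor-like protein, and Ccl6 encodes a secreted chemokine.

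The promoters of 3 genes of the rule, Lyz1, Ear2 and Fcrls, and of Lyz2, the neighbouring lysozyme gene that the rule did not use, are shown so that the start regions of the defining genes can be compared. Each sequence covers 250 bases before to 50 bases after the start site in RefSeq (build GRCm38.p6, 5′ to 3′ on the gene's own strand), and capitals mark AGGAAG or its reverse complement CTTCCT, the core that factors of the ETS family such as PU.1 recognise.
Lyz1 (chr10:117292819-117293118, minus strand): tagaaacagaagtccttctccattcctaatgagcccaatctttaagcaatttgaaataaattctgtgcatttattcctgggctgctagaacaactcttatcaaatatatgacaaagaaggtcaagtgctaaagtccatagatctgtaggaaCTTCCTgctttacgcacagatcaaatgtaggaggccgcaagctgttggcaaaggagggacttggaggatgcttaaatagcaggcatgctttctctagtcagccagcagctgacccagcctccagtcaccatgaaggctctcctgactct
Lyz2 (chr10:117282223-117282522, minus strand): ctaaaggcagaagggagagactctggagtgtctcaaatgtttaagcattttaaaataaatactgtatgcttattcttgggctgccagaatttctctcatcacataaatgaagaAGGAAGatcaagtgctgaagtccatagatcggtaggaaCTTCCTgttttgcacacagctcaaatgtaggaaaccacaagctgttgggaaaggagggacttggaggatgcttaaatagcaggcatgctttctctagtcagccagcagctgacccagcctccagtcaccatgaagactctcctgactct
Ear2 (chr14:44102404-44102703, plus strand): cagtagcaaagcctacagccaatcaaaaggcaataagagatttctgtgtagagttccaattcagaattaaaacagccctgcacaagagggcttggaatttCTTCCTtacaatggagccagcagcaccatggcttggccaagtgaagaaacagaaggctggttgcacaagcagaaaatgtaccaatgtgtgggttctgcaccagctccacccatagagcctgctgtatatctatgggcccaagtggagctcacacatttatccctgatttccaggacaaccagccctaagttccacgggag
Fcrls (chr3:87263475-87263774, minus strand): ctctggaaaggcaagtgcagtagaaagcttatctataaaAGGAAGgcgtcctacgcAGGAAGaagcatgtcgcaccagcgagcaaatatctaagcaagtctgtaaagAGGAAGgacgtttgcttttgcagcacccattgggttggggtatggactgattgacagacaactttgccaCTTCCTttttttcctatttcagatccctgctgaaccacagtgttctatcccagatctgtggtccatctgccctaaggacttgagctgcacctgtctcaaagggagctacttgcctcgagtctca
The Lyz1 and Lyz2 sequences matched at 249 of 302 aligned positions (82.5%), against 47.8% for Lyz1 with Ear2 and 46.1% for Lyz1 with Fcrls. Both lysozyme promoters held the core on the minus strand 99 bases before the start, and Lyz2 held another on the plus strand at 137 bases before it, at a place where Lyz1 has none. Fcrls held 4 such cores and Ear2 held 1. Mmp12, the other gene of the rule, has 2 promoters in RefSeq, of which 1 held a single core, there within the longer PU.1 sequence GAGGAAGT that 3.20% of promoters hold and that the 4 printed sequences lack. The core is common: 35.4% of 32851 mouse promoters of the same length held it on either strand.

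The genes lie apart from each other in the genome apart from the lysozymes. On GRCm38, the assembly that mm10 names, the protein-coding gene Lyz1 spans chr10:117287797-117292868 and Lyz2 spans chr10:117277331-117282321. Ear2 spans chr14:44102654-44103534, Mmp12 spans chr9:7344381-7369499 and Fcrls spans chr3:87250758-87263738. Near-identical copies limit what a UMI can be assigned to: 16.1% of the 50-base stretches of Lyz1 transcripts also occur in Lyz2, and 23.6% and 26.0% of those of Ear2 occur in Ear1 and Ear10. How many captured reads fell in these stretches was not measured, so counts of Lyz1 and Ear2 are uncertain by an amount not known here. Ear1 itself had 4.71 CPM (UMIs of the gene per 1000000 UMIs of the class) in members of library 1 and 0 in library 2, and Ear10 had 0 in both.

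Library 1 held 5137671 UMIs in all (median 3065 per barcode before filtering) and library 2 held 5563521 (median 2663). The members were among the better covered barcodes and held 847 to 10592 UMIs with a median of 5374 and 507 to 2697 genes. By library their median UMIs were 5738 and 4179, against 3022 and 2030 in C1q-high macrophages and 4693 and 4194 in the dendritic gate. A sum of at least 4 UMIs is reached more easily in a deep barcode, and the part of depth in the choice of members was not tested. The doublet caller Scrublet called 39 barcodes in library 1 and 4 in library 2, and 0 of them were members. No barcode sequence occurred in both libraries.

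The rule genes gave the following levels, as a description of what chose the cells. Lyz1 had 5518 and 4242 CPM in members of libraries 1 and 2, against 670 and 793 CPM in C1q-high macrophages and 38.2 and 19.3 CPM in the dendritic gate. Fcrls had 819 and 699 CPM in members, against 225 and 196 CPM in C1q-high macrophages. Ear2 had 683 and 302 CPM in members, against 78.5 and 30.2 CPM in C1q-high macrophages. Mmp12 had 249.6 and 231 CPM in members, against 0 and 130 CPM in C1q-high macrophages, so the libraries of macrophages differed widely. Of 115 barcodes that reached the sum of 4, 30 had at least 8 C1q UMIs, 7 had over 2 Dcn UMIs, 2 failed another exclusion and 76 were members. The border with the macrophages was not empty on the other side either: 25 of 253 C1q-high macrophages also reached the sum of 4.

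**Figure D1:**
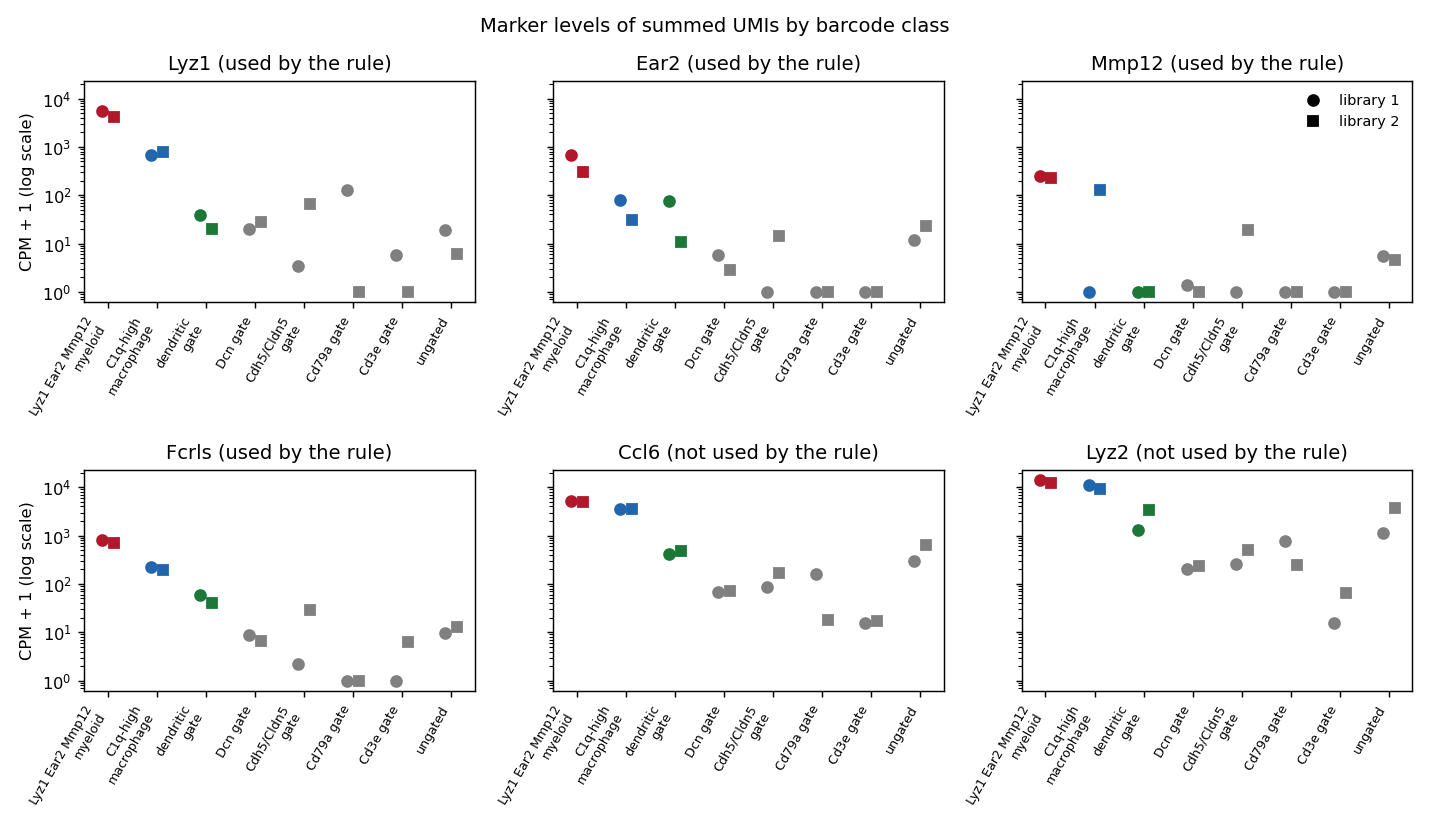
Level of the 6 marker genes in each barcode class, as CPM + 1 of summed UMIs on a log scale, with 1 point per library (circle library 1, square library 2) and the members at the left of each panel. Lyz1 stands at 5518 and 4242 CPM in the members and at 670 and 793 CPM in C1q-high macrophages, while Lyz2 is close between these classes.

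Lyz2, which the rule did not use, was carried by 76 of 76 members. It had 14257 and 12376 CPM in members, against 11149 and 9368 CPM in C1q-high macrophages and 1308 and 3331 CPM in the dendritic gate. The share of Lyz1 among all lysozyme UMIs describes what the rule selected, since 53 members reached the sum on Lyz1 alone. Lyz1 made up 27.9% (26.6 to 29.3%) and 25.5% (23.9 to 27.2%) in members, against 5.67% (5.01 to 6.38%) and 7.81% (6.92 to 8.77%) in C1q-high macrophages and 2.84% (0.778 to 7.10%) and 0.575% (0.0697 to 2.06%) in the dendritic gate. The chemokine gene Ccl6 was also found in 76 of 76 members, at 5071 and 4840 CPM, against 3598 and 3488 CPM in C1q-high macrophages and 420 and 481 CPM in the dendritic gate.

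Detection was compared after thinning each barcode to 1000 UMIs, which left out 1 member of library 2. For Lyz1 the rule itself fixed that members are higher, and thinning the same UMIs does not undo this. As a description, Lyz1 was then seen in 68.4% (26 of 38; 51.3 to 82.5%) and 62.2% (23 of 37; 44.8 to 77.5%) of members, against 11 of 123 and 10 of 125 C1q-high macrophages. In barcodes with a Cd3e UMI, T cells that should lack it, 1 of 100 in library 1 and 0 of 86 in library 2 had a Lyz1 UMI, at median depths of 1776 and 1663 UMIs before thinning. Without thinning, 71.1% and 78.9% of members had one. Fibronectin (Fn1), which the rule did not use, was seen in 73.7% (28 of 38) and 86.5% (32 of 37) of thinned members, against 10.6% and 9.60% of C1q-high macrophages, 0 of 19 and 0 of 26 in the dendritic gate, and 0 and 2.33% of barcodes with a Cd3e UMI.

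The 4 rule genes did not mark the same members. Fcrls was found in 65 of 76 members, Ear2 in 61, Lyz1 in 57 and Mmp12 in 13. Members with UMIs of exactly 1, 2, 3 and 4 of the genes numbered 7, 26, 35 and 8. Lyz1 ran from 0 to 124 UMIs per member with a median of 9, and 19 members had 0 while 37 had at least 10. Mmp12 came from few cells: 1 member held 21.7% of its 92 UMIs, and only 1 member would have been lost without the gene, against 15 without Lyz1, 11 without Fcrls and 8 without Ear2. Over 75 thinned members, Spearman correlations between the rule genes ran from -0.16 (Mmp12 with Fcrls) to 0.22 (Lyz1 with Ear2), weak in sparse counts that share depth and library. Choosing members on the sum of these genes lowers such correlations by itself, so they are given as a description. Ear2 was found in 37 of 38 members of library 1 and in 24 of 38 of library 2.

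**Figure D2:**
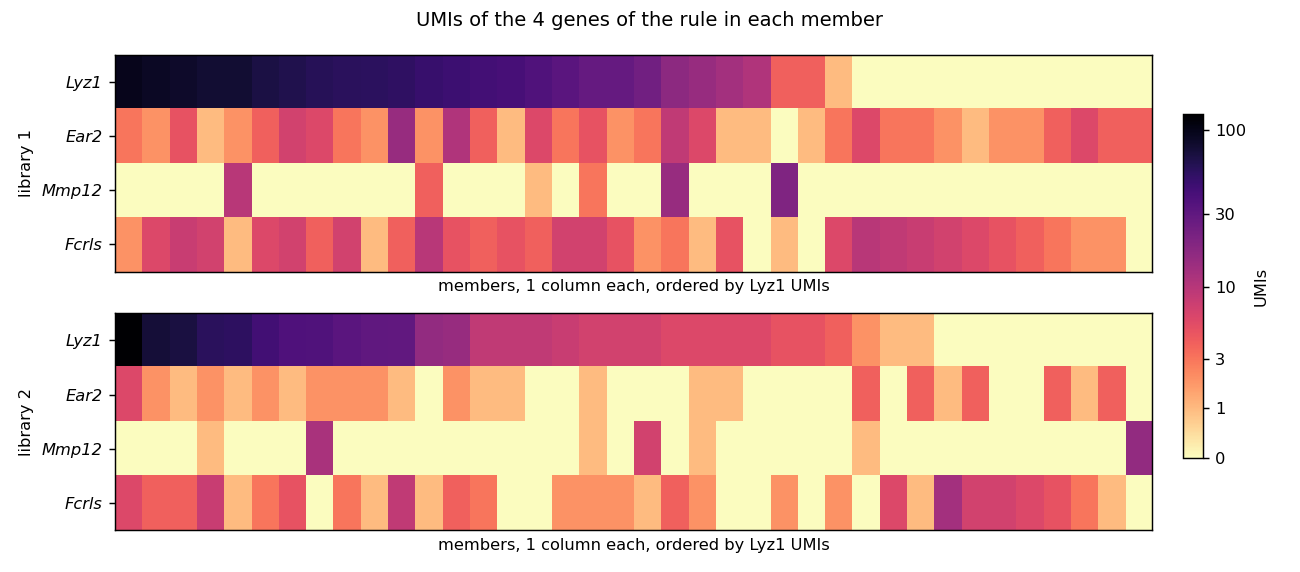
UMIs of Lyz1, Ear2, Mmp12 and Fcrls (rows) in each of the 76 members (columns), library 1 above library 2, ordered by Lyz1 within a library, with color on a log scale of UMIs + 1. Lyz1 is absent from 19 members at the right, which hold Ear2 or Fcrls apart from the last column of library 2, and Mmp12 is present in 13 members scattered along the order.

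The genes most like the summed rule genes across the 75 thinned members were Lyz2 (Spearman's rho 0.48), Retnla (0.43), Cd81 (0.42), Fn1 (0.40), Cyba (0.40) and Ccl6 (0.39), out of 1243 genes compared, whose median rho was -0.01. The sum is mostly Lyz1, with 1888 UMIs in members before thinning, against 292 of Fcrls, 196 of Ear2 and 92 of Mmp12. These values therefore mainly describe Lyz1. Lyz2 shares stretches of sequence with Lyz1, and both libraries were pooled, so differences between them enter the values. Members just inside the lower threshold resembled the barcodes just outside it in part. The 5 members with a sum of 4 or 5 had 8377 CPM of Lyz2 and 26913 CPM of Cd74 (invariant chain of MHC class II), and the 18 otherwise eligible barcodes with a sum of 2 or 3 had 3707 CPM and 35363 CPM. Fn1 stood at 490 CPM and Retnla at 2718 CPM in these 5 members, against 344 and 3019 CPM in the 18 barcodes. All members together had 2415 and 3596 CPM of Fn1 and 20157 and 10617 CPM of Retnla by library. At the C1q threshold, the 8 members with 4 to 7 C1q UMIs had 4820 CPM of Fn1 and 20598 CPM of Retnla, and the 2 barcodes with 8 to 11 C1q UMIs and a sum of at least 4 had 5596 CPM and 17586 CPM. C1q was at 0 in 55 members and at 1 to 3 UMIs in 13.

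Whether the cells derive from monocytes could be checked only against marker genes, since origin was not measured. Of 14 genes listed for classical monocytes, Fn1 (2415 and 3596 CPM), Ccr2 (480 and 456 CPM), the guanine deaminase gene Gda (381 and 468 CPM) and the factor XIII subunit gene F13a1 (155 and 219 CPM) were present in members. The defining surface marker Ly6c2 had 1 UMI in all members, or 4.71 and 0 CPM, and Plac8 had 9.42 and 0 CPM. Chil3 had 4.71 and 0 CPM, and Hp, Ms4a4c and Cd177 had 0 in both libraries, where a count of 0 allows up to 14.1 and 17.8 CPM (3 UMIs). Ccr2 was carried by 33 and 28 of 38 members and Ly6c2 by 1 and 0. The 13 matched genes listed for nonclassical monocytes summed to 330 and 296 CPM in members. Their sums were 429 and 564 CPM in C1q-high macrophages and 745 and 809 CPM in the dendritic gate. The cells are therefore called here by their genes.

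Markers of granulocytes, mast cells, pericytes and B cells were at or near 0 in members, while some lists of other myeloid cells were not. Of 9 eosinophil markers, 7 were at 0, among them Epx, Prg2, Prg3 and Ccr3, and the list summed to 4.71 and 5.92 CPM in members, against 0 and 3.02 CPM in C1q-high macrophages and 19.1 and 0 CPM in the dendritic gate. Of 12 neutrophil markers, 10 were at 0, and all 8 mast cell, 8 pericyte and 7 matched B cell markers were at 0. The 8 fibroblast markers summed to 65.9 and 65.2 CPM in members, against 73.3 and 81.5 CPM in C1q-high macrophages. The rule itself required 0 UMIs of Cd79a, a listed B cell marker, and at most 2 of Dcn, a listed fibroblast marker. The macrophages had the same exclusions, so the B cell and fibroblast values were in part fixed by the gates. Of 16 dendritic cell markers, 7 including Flt3 and Clec9a were at 0, and the list summed to 706 and 450.3 CPM in members, against 416 and 344 CPM in C1q-high macrophages and 2930.4 and 2917 CPM in the dendritic gate. All genes that defined the dendritic gate are on this list, so the high sum of that gate was in part fixed by its definition. Of 10 markers of large peritoneal macrophages, 7 including their defining factor Gata6 were at 0. That list also holds Fn1, and summed to 2439 and 3608 CPM in members, against 466 and 555 CPM in C1q-high macrophages and 181 and 86.6 CPM in the dendritic gate. The 10 markers of natural killer and innate lymphoid cells summed to 132 and 166 CPM in members, against 52.3 and 72.4 CPM in C1q-high macrophages and 124 and 395 CPM in the dendritic gate. The part of other cells in the results was not tested.

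Against the rest of the tissue, which the rule itself used and which is therefore described without a test, the 20 genes highest in members were led by Slc7a11, the cystine importer subunit that feeds glutathione synthesis. It had 654 and 758 CPM in members, against 25.7 and 44.0 CPM in the other barcodes. After it came Ccl6, Retnla (a resistin-like secreted protein linked to interleukin-4 signalling), Tnip3 (a partner of the NF-κB inhibitor A20), Cfp (properdin, which stabilises the complement convertase) and Pilra (an inhibitory receptor). Ratios to the rest, with 10 CPM added to both sides and the lower library taken, ran from 14.2 for Slc7a11 to 7.22 for Clec4e (Mincle, a receptor for microbial glycolipids). Between them stood Lyz2, the metalloproteinase gene Adam8, Ifitm6, the calcium channel gene Ryr1, Unc119, Ccl9, Itgam (integrin αM), Csf2ra (receptor α chain for GM-CSF), Ccdc109b, H2-DMa, Rab11fip1, Clec4a2 and Alox5ap (needed for leukotriene synthesis).

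The members were then compared with the macrophages and the dendritic gate in 1 edgeR quasi-likelihood fit over the 6 sums of UMIs (3 classes in 2 libraries), with the mouse as a block. The low-count filter kept 2911 genes that no gate had used. Against C1q-high macrophages, 949 of these passed an adjusted p of 0.05, which is 32.6%, with 402 higher in members (13.8%) and 547 lower (18.8%). Against the dendritic gate 342 passed (11.7%), with 146 higher (5.02%) and 196 lower (6.73%). Both comparisons use the same members. C1q UMIs separated members from macrophages, so genes that go with C1q within a barcode were in part chosen by it. The sum of the rule genes likewise separated members from the dendritic gate. Genes that rose with this sum among members, such as Lyz2, Retnla, Fn1 and Ccl6, were thus in part chosen by the gates. When each barcode's UMIs were split at random in equal parts, with gates set on 1 part and the test run on the other, 591 of 1639 genes and 182 of 1639 genes were called. The UMI limits of these gates were divided by 2. They gave 78 members, of which 69 were also members by all UMIs. DESeq2's Wald test called 382 and 140 genes.

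The 20 genes with the highest ratios to the rest were chosen for being high in members, and the rest includes the C1q-high macrophages and the dendritic gate, so the direction of their differences was largely fixed by that choice and their counts are descriptions. Against C1q-high macrophages 15 of 19 tested were higher in members, 4 were not called and 0 were lower, beside 13.8% higher over all genes tested. Slc7a11 stood at 654 and 758 CPM in members, against 110 and 72.4 CPM in C1q-high macrophages (log2 fold change 2.81 ± 0.28 SE, the scale of all fold changes with an SE given here, edgeR adjusted p = 2.60e-06). Unc119 had 358 and 278 CPM in members, against 34.0 and 21.1 CPM in macrophages (3.38 ± 0.29, edgeR adjusted p = 6.04e-07). For both genes the lower library of members was over the higher library of macrophages. Adam8 (3.04 ± 0.33), Rab11fip1 (3.18 ± 0.37), Ryr1 (2.97 ± 0.39), Pilra (2.35 ± 0.35), Clec4e (1.76 ± 0.25) and Tnip3 (1.70 ± 0.25) were higher too. Ccl6 was higher by only 0.37 ± 0.10 (edgeR adjusted p = 0.0124), and Lyz2, Retnla, Ccl9 and Clec4a2 were not called. Retnla had 20157 and 10617 CPM in members, against 16905 and 10544 CPM in macrophages, a difference smaller than that between the libraries. The calls of Ccl6, Cfp, Alox5ap, Ccdc109b and Csf2ra were lost with DESeq2's Wald test.

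Genes of resident macrophages were lower in members in every tested case, beside 18.8% lower over all genes tested. Of 18 listed genes 14 were tested, 0 were higher and 14 were lower, with a median log2 fold change of -5.56 when genes without a UMI in members are set at their limit, against 0.00 over all genes tested. Folr2, a folate receptor, had 0 UMIs in members, against 986 and 818 CPM in C1q-high macrophages, and was at least 115-fold lower when 3 UMIs over both libraries stand for 0. Lyve1, a hyaluronan receptor, also had 0 UMIs in members, against 581 and 588 CPM, at least 74.2-fold lower. The lectin genes Fcna (at least 54.3-fold lower) and Cd209f (at least 39.0-fold) had 0 UMIs in members as well. Pf4 had 0 and 41.5 CPM in members, against 4035 and 3509 CPM in macrophages. Mrc1, the mannose receptor, had 127 and 196 CPM in members, against 727 and 821 CPM in macrophages (-2.39 ± 0.20, edgeR adjusted p = 4.46e-07). All 12 tested scavenger and phagocytosis genes were lower in members, among them Cd36 (-2.05 ± 0.18) and Mgl2 (-2.99 ± 0.31). Other genes at 0 UMIs in members were Ednrb, Ms4a7, Ccl12, C4b, Cd93 and Bmp2, with limits from 39.5-fold lower for Ednrb to 23.3-fold lower for Cd93. DESeq2's Wald test did not call Folr2, Fcna, Cd209f, Ms4a7, Ccl12, C4b and Bmp2.

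The 10 largest increases over macrophages included several surface molecules. Cd24a, a heavily glycosylated adhesion molecule, had 504 and 367 CPM in members, against 10.5 and 3.02 CPM in C1q-high macrophages (5.76 ± 0.35, edgeR adjusted p = 1.55e-08). Dcstamp, a protein of cell fusion in osteoclasts and giant cells, had 84.8 and 88.9 CPM in members and 0 UMIs in macrophages, at least 20.6-fold higher. Siglecg, an inhibitory lectin, had 65.9 and 59.2 CPM in members, against 2.62 and 0 CPM in macrophages, a pooled ratio of 44.9 with an exact 95% counting interval of 7.33 to 1848. The integrin chain gene Itgb7 had 37.7 and 41.5 CPM in members, against 2.62 and 0 CPM (ratio 28.1, 4.32 to 1182). Ccr7, the receptor that guides cells to lymph nodes, had 33.0 and 41.5 CPM in members, 7 UMIs in each library from 2 and 3 members, against 2.62 and 0 CPM (ratio 26.2, 3.99 to 1108). These ratios rest on 1 UMI in the macrophages. H2-DMb2 is described below with the antigen presentation genes. Upb1, Plcb1 and Wnt11 had ratios of 59.9 (10.0 to 2439), 25.3 (6.35 to 219) and 19.7 (4.81 to 173). In the macrophages they rest on 1 UMI for Upb1, 2 for Plcb1 and 1 per library for Wnt11. Mthfd1, an enzyme of folate metabolism, was higher by 3.72 ± 0.61. The calls of Ccr7 and Itgb7 were lost when the members with dendritic gate sums of at least 2 were left out (4 in library 1 and 1 in library 2), a choice made after seeing the data. Of 11 tested integrin and adhesion genes 4 were higher (Cd24a, Itgb7, Itgax, Cd226) and 0 were lower, beside 13.8% and 18.8% over all genes tested. Itgax was not called by DESeq2's Wald test. Cd226, a marker of small peritoneal macrophages, had 65.9 and 77.0 CPM in members, against 10.5 and 0 CPM in macrophages, and 47.7 and 38.5 CPM in the dendritic gate.

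Among monocyte genes the direction was mixed, where 13.8% of all genes tested were higher in members than in macrophages and 18.8% lower. Of 8 tested, Fn1, Ccr2 and Gda were higher in members than in C1q-high macrophages, F13a1 and Mgst1 were lower and 3 were not called. Fn1, the matrix glycoprotein fibronectin, had 2415 and 3596 CPM in members, against 377 and 480 CPM in macrophages (2.68 ± 0.15, edgeR adjusted p = 8.80e-09). Ccr2 was higher by 1.09 ± 0.19 and Gda by 0.67 ± 0.20, and the call of Gda was lost with DESeq2's Wald test. F13a1, which the resident macrophage list also holds, had 155 and 219 CPM in members, against 848 and 965 CPM in macrophages (-2.40 ± 0.22). Among 9 tested genes of small peritoneal macrophages, 3 were higher (Ccr2, Cd226, Itgax), 3 were lower (Mgl2, Clec10a, Folr2) and 3 were not called.

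Of 7 tested cytokine receptor genes, Csf2rb and Csf2ra were higher in members than in macrophages, Csf1r, Il4ra and Tgfbr2 were lower and 2 were not called. The shares over all genes tested were 13.8% higher and 18.8% lower. Csf2rb, the β chain shared by GM-CSF, IL-3 and IL-5 receptors, had 217 and 314 CPM in members, against 28.8 and 60.3 CPM in macrophages (2.47 ± 0.28, edgeR adjusted p = 9.66e-06). Csf2ra was higher by 0.92 ± 0.18. Csf1r, the receptor for macrophage colony-stimulating factor, had 193 and 207 CPM in members, against 890 and 1134 CPM in macrophages (-2.43 ± 0.27, edgeR adjusted p = 7.57e-06). The calls of Csf2ra, Csf1r and Il4ra were lost with DESeq2's Wald test. Of 8 tested receptors for chemoattractants, 3 were higher, including Ccr2 and Ccr7, and 3 were lower, among them the complement receptors C5ar1 (28.3 and 11.8 CPM in members, against 937 and 760 CPM) and C3ar1 (23.5 and 11.8 CPM, against 531 and 555 CPM).

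Chemokine genes were mostly lower in members than in macrophages, beside 18.8% lower over all genes tested. Of 15 tested, Ccl6 was higher, 11 were lower and 3 were not called, with a median log2 fold change of -3.41. Cxcl2, which attracts neutrophils, had 857 and 1600 CPM in members, against 11680 and 11610 CPM in macrophages. Ccl4 had 283 and 326 CPM in members, against 6772 and 7214 CPM. Ccl2, the main ligand of CCR2, had 249.6 and 94.8 CPM in members, against 7261 and 7757 CPM in macrophages (-5.50 ± 0.23, edgeR adjusted p = 4.09e-10). Genes that respond to tissue dissociation differed beside them: the 18 listed genes summed to 4732 and 4870 CPM in members, against 11073 and 10119 CPM in macrophages and 6281 and 6710 CPM in the dendritic gate. Of 17 tested, 13 were lower than in macrophages, Btg2 was higher and 3 were not called. The part of dissociation in the chemokine and cytokine differences was not tested.

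**Figure D3:**
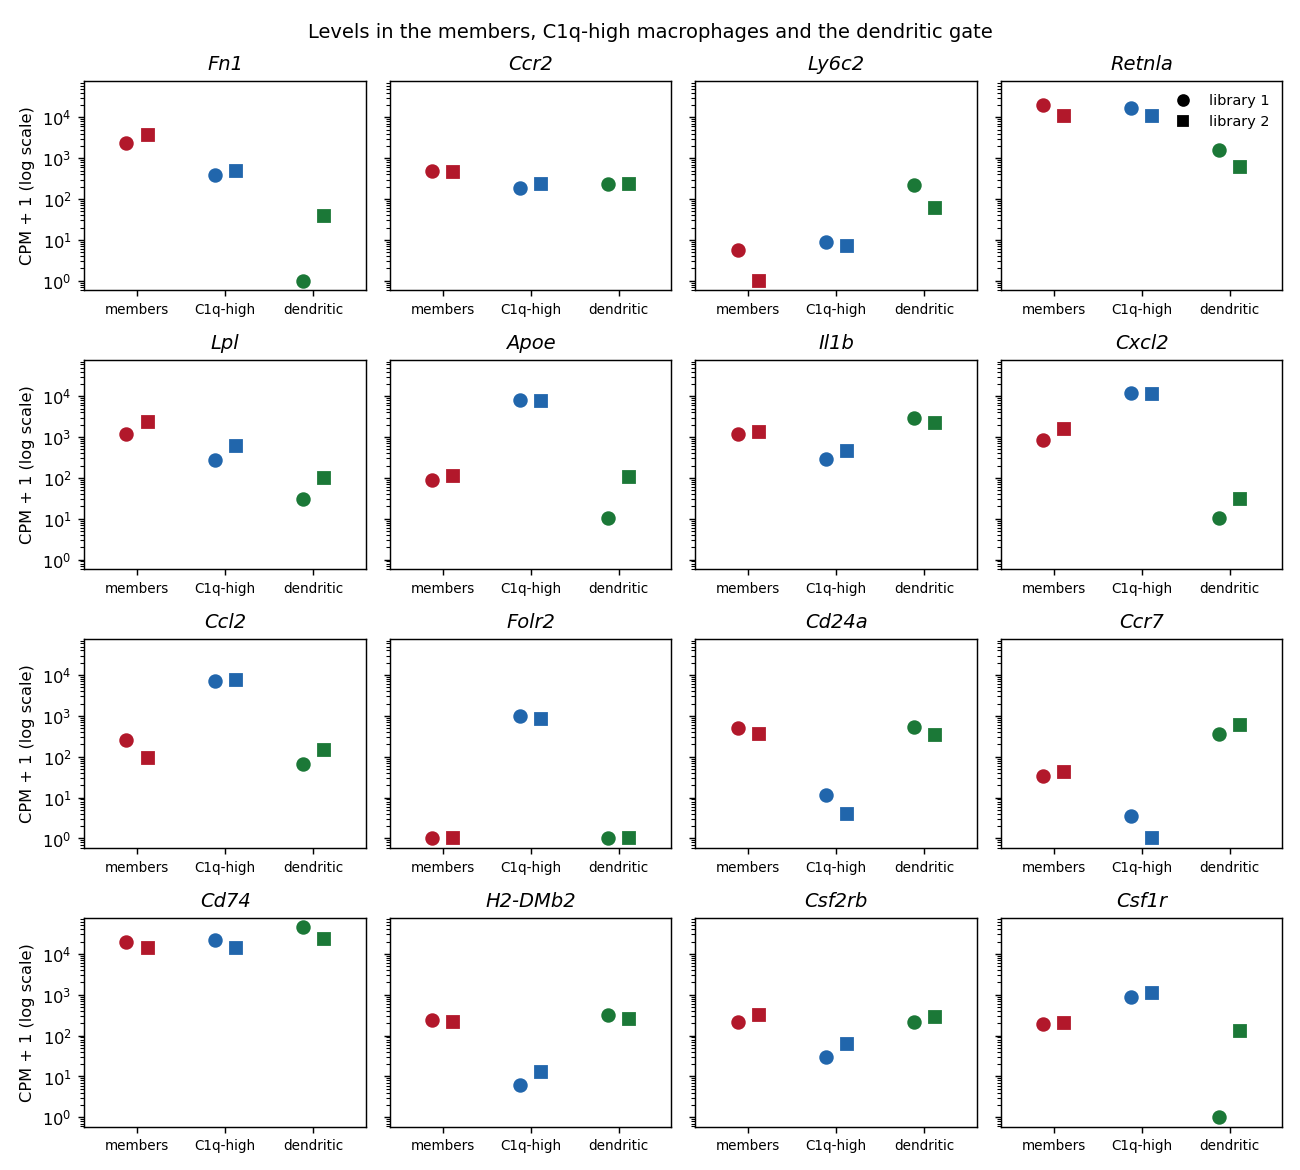
Levels of genes in members (red), C1q-high macrophages (blue) and the dendritic gate (green), as CPM + 1 of summed UMIs on a log scale, 1 point per library. Ly6c2 and Folr2 are at or near 0 in the members, Fn1 is highest in the members (2415 and 3596 CPM), and Ccl2 is highest in C1q-high macrophages (7261 and 7757 CPM).

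Inflammatory cytokines went both ways. Il1b had 1205 and 1321 CPM in members, against 290.4 and 443.5 CPM in macrophages (1.68 ± 0.19, edgeR adjusted p = 8.90e-06). Il6 was higher by 1.52 ± 0.35, a call lost with DESeq2's Wald test. Tnf had 61.2 and 136 CPM in members, against 612 and 667 CPM in macrophages (-2.85 ± 0.25). In all, 2 of 15 tested cytokine and growth factor genes were higher and 9 were lower, beside 13.8% and 18.8% over all genes tested. The count of higher genes was thus near the share over all genes. The inflammasome adaptor Pycard was higher (1.72 ± 0.23) and the receptor Tlr2 lower (-1.72 ± 0.21).

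Antigen presentation genes went both ways against macrophages. Of 12 tested MHC class II genes, 2 were higher, 3 lower (Cd40, Cd86, H2-Aa) and 7 not called. Beside 13.8% higher and 18.8% lower over all genes tested, these counts do not set the list apart. The calls of Cd40 and H2-Aa were lost with DESeq2's Wald test. H2-DMa and H2-DMb2, subunits of the chaperone that loads peptides, were the higher pair: H2-DMb2 had 235 and 219 CPM in members, against 5.23 and 12.1 CPM in macrophages (4.56 ± 0.41, edgeR adjusted p = 9.63e-07), and H2-DMa was higher by 1.08 ± 0.15. Cd74 was not called, at 19738 and 14023 CPM in members, against 22499 and 14174 CPM in macrophages.

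Most tested lipid, iron and lysosome genes were lower in members than in macrophages, beside 18.8% lower and 13.8% higher over all genes tested. Lpl, the lipase that frees fatty acids from lipoproteins, had 1215 and 2328 CPM in members, against 269 and 588 CPM in macrophages (1.96 ± 0.14, edgeR adjusted p = 7.45e-08), and Lgals3 was higher by 0.67 ± 0.16, a call lost with DESeq2's Wald test. Apoe, the apolipoprotein, had 89.5 and 113 CPM in members, against 7857 and 7624 CPM in macrophages (-6.38 ± 0.23). Of 12 tested lipid genes 2 were higher and 7 lower. Of 7 iron and heme genes, 0 were higher and 6 were lower, among them Hmox1 (-2.86 ± 0.23) and Ftl1 (-0.80 ± 0.10). Of 15 lysosomal genes, Psap was higher (0.80 ± 0.15, not called by DESeq2's Wald test) and 10 were lower, including Cst3 (-1.38 ± 0.14). Among 21 tested transcription factor genes, 6 were higher, among them Batf3 (1.46 ± 0.25), Bhlhe40 (2.02) and Runx3 (2.48), and 10 were lower, among them Maf (14.1 and 23.7 CPM in members, against 311 and 362 CPM in macrophages) and Spi1, which encodes PU.1 (-1.03 ± 0.18).

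Against the dendritic gate, which held its defining genes Cd209a at 1231 and 732 CPM and Flt3 at 57.3 and 48.1 CPM, the members were higher for fibronectin, for 5 of 15 tested chemokines and for 4 of 12 tested lipid genes. Of the other chemokines, Ccl17, Ccl5 and Cxcl16 were lower and 7 were not called, and the calls of Ccl17 and Ccl5 were lost with DESeq2's Wald test. Of the same 19 genes chosen for high ratios to the rest, 14 were higher in members, 5 were not called and 0 were lower, beside 5.02% higher over all genes tested, which describes that choice. The calls of Unc119, Rab11fip1, Pilra, Cfp, Ifitm6, Ccdc109b and Csf2ra were lost with DESeq2's Wald test. Fn1 had 2415 and 3596 CPM in members, against 0 and 38.5 CPM in the dendritic gate (7.17 ± 0.33, edgeR adjusted p = 1.96e-09). Retnla had 20157 and 10617 CPM in members, against 1604 and 607 CPM in the dendritic gate (3.76 ± 0.15, edgeR adjusted p = 5.53e-10). Ccl6 (3.39 ± 0.14), Lpl (4.76 ± 0.25), Cxcl2 (5.86 ± 0.45) and the cathepsin D gene Ctsd (3.93 ± 0.38) were higher as well. In each of these 6 genes the lower library of members lay above the higher library of the dendritic gate. Fn1, Retnla and Ccl6 rose with the rule genes among members, so the gates in part chose their differences. Cxcl2 and Lpl were also lower in members without Lyz1 than in those with at least 10 Lyz1 UMIs. Cxcl2 had 15.4 and 429 CPM without Lyz1, against 1199 and 1856 CPM with at least 10 UMIs. Lpl had 415 and 2383 CPM without Lyz1, against 1376 and 2602 CPM. The part of the gates in the Cxcl2 and Lpl differences was not tested.

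Further genes had 0 UMIs in the dendritic gate. Tnf had 61.2 and 136 CPM in members, at least 6.57-fold higher, Ptgs1 (cyclooxygenase 1) had 65.9 and 113 CPM, at least 6.02-fold higher, and Pld3 had 104 and 94.8 CPM, at least 6.93-fold higher. Kif19a, 2310022A10Rik, Sema4b, Ms4a8a and Cers6 were also among the 10 largest increases, with limits from 5.84 for Kif19a to 4.01 for Cers6. The calls of Sema4b, Ms4a8a and Cers6 were lost with DESeq2's Wald test. Among transcription factors, Cebpb had 1252 and 1357 CPM in members, against 143 and 269.6 CPM in the dendritic gate (2.58 ± 0.23). Zeb2 was higher by 2.36 ± 0.21. Beside 6.73% lower over all genes tested, 4 of 21 were lower, including Irf8 (51.8 and 0 CPM in members, against 439 and 279 CPM). Spi1 was not called, at 353 and 290.3 CPM in members and 363 and 395 CPM in the dendritic gate.

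Many antigen presentation genes were lower in members than in the dendritic gate, beside 6.73% lower over all genes tested. Of 12 tested MHC class II genes, 0 were higher, 8 were lower and 4 were not called, and the calls of Cd40, H2-DMb1, H2-Oa and H2-Ob were lost with DESeq2's Wald test. Cd74 had 19738 and 14023 CPM in members, against 45330 and 23299 CPM in the dendritic gate (-1.04 ± 0.11, edgeR adjusted p = 2.31e-05). H2-DMa and H2-DMb2 were not called. Ccr7 had 33.0 and 41.5 CPM in members, against 353 and 607 CPM in the dendritic gate (-3.71 ± 0.36, edgeR adjusted p = 1.11e-05). Cst3 (-2.76 ± 0.14) and Trf (-3.20 ± 0.34) were lower as well. Il1b had 1205 and 1321 CPM in members, against 2892 and 2176 CPM in the dendritic gate (-1.08 ± 0.17). Cd24a was not called, at 504 and 367 CPM in members and 544 and 347 CPM in the dendritic gate.

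Monocyte genes separated these classes in both directions, where 5.02% of all genes tested were higher in members and 6.73% lower. Of 8 tested, 4 were higher in members (Fn1, Ccr2, Gda, F13a1), 3 were lower (Ly6c2, Plac8, Ms4a4c) and 1 was not called. Ly6c2 had 4.71 and 0 CPM in members, against 219.5 and 57.8 CPM in the dendritic gate (edgeR adjusted p = 0.000924), where the dendritic gate was higher by a ratio of 53.0 with a counting interval of 8.78 to 2164. Plac8 had 9.42 and 0 CPM in members, against 200 and 318 CPM in the dendritic gate (ratio 49.3 in favour of the gate). The calls of Plac8 and Ccr2 were lost with DESeq2's Wald test. Tbc1d4, H2-Oa, Timd4 and Gpr183 had 0 UMIs in members, with limits from 17.7-fold lower for Tbc1d4 to 13.4-fold lower for Gpr183. Pfkfb3, Ifi205, Ms4a6b and Ms4a6c completed the 10 largest decreases, and the calls of H2-Oa and Ms4a6b were lost with DESeq2's Wald test. In lipid handling, Cd36, Lpl, Plin2 and Pltp were higher in members and 0 of 12 were lower, and in iron handling Ftl1 (1.03 ± 0.11) and Fth1 (1.12 ± 0.11) were higher while Trf was lower.

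**Figure D4:**
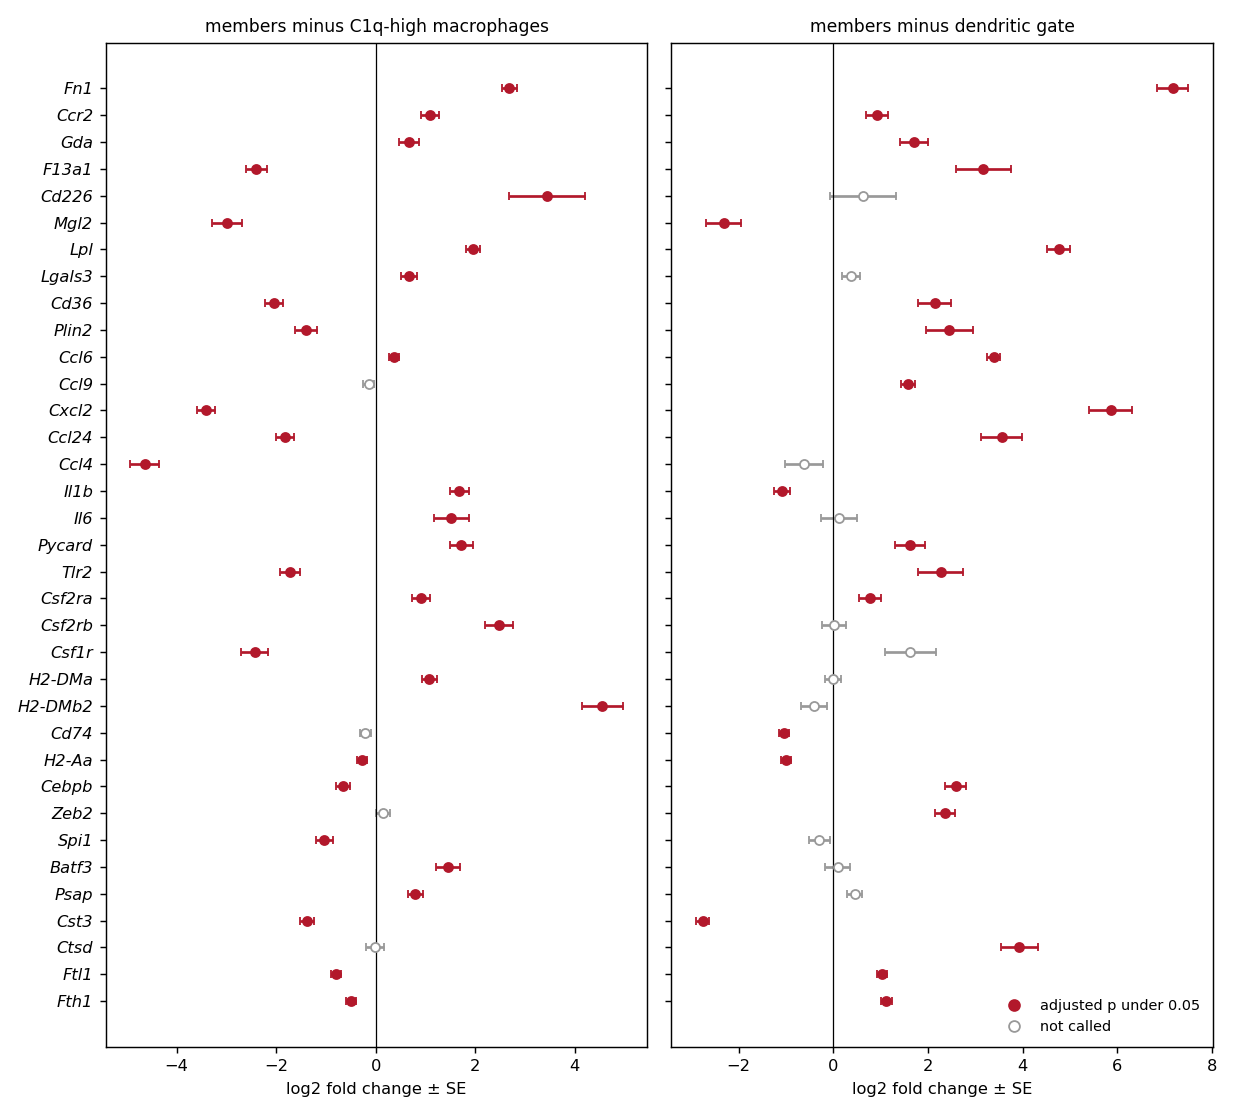
Log2 fold change with a standard error computed from the F statistic for genes of the lists, members minus C1q-high macrophages on the left and members minus dendritic gate on the right, filled where the edgeR adjusted p is under 0.05. Fn1, Ccr2, Gda, Lpl, Ccl6, Pycard and Csf2ra are higher in members on both sides, while Cxcl2, Ccl24, Cd36 and Tlr2 are lower than in macrophages and higher than in the dendritic gate.

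Members with and without Lyz1 differed in other genes, given as a description since Lyz1 is a rule gene. In the 19 members without a Lyz1 UMI (11 and 8 by library) the median UMIs were 5716 and 6573.5, and in the 37 with at least 10 (24 and 13) they were 5694 and 5223. Lyz2 stood at 8464 and 8803 CPM in members without Lyz1, and at 17339 and 15808 CPM in those with at least 10 UMIs. Fn1 stood at 739 and 2018 CPM without Lyz1 and at 3389 and 4443 CPM with at least 10 UMIs. Ccl6 had 3016 and 4294 CPM without Lyz1 and 6179 and 6330 CPM with at least 10 UMIs. The order was the opposite for Cd24a, with 1000.3 and 601 CPM without Lyz1 and 299.7 and 243 CPM with at least 10 UMIs. Il1b was also higher at 0 than at 10 or more, with 2262 and 1245 CPM without Lyz1 and 715 and 624 CPM with at least 10 UMIs. In library 2, however, Il1b was highest in the 17 members with 1 to 9 Lyz1 UMIs, at 2195 CPM. Ccr7 had 108 and 129 CPM without Lyz1 and 0 in both libraries with at least 10 UMIs. Cd209a, a gene of the dendritic gate, had 585 and 21.5 CPM without Lyz1, so library 1 alone carried it.

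**Figure D5:**
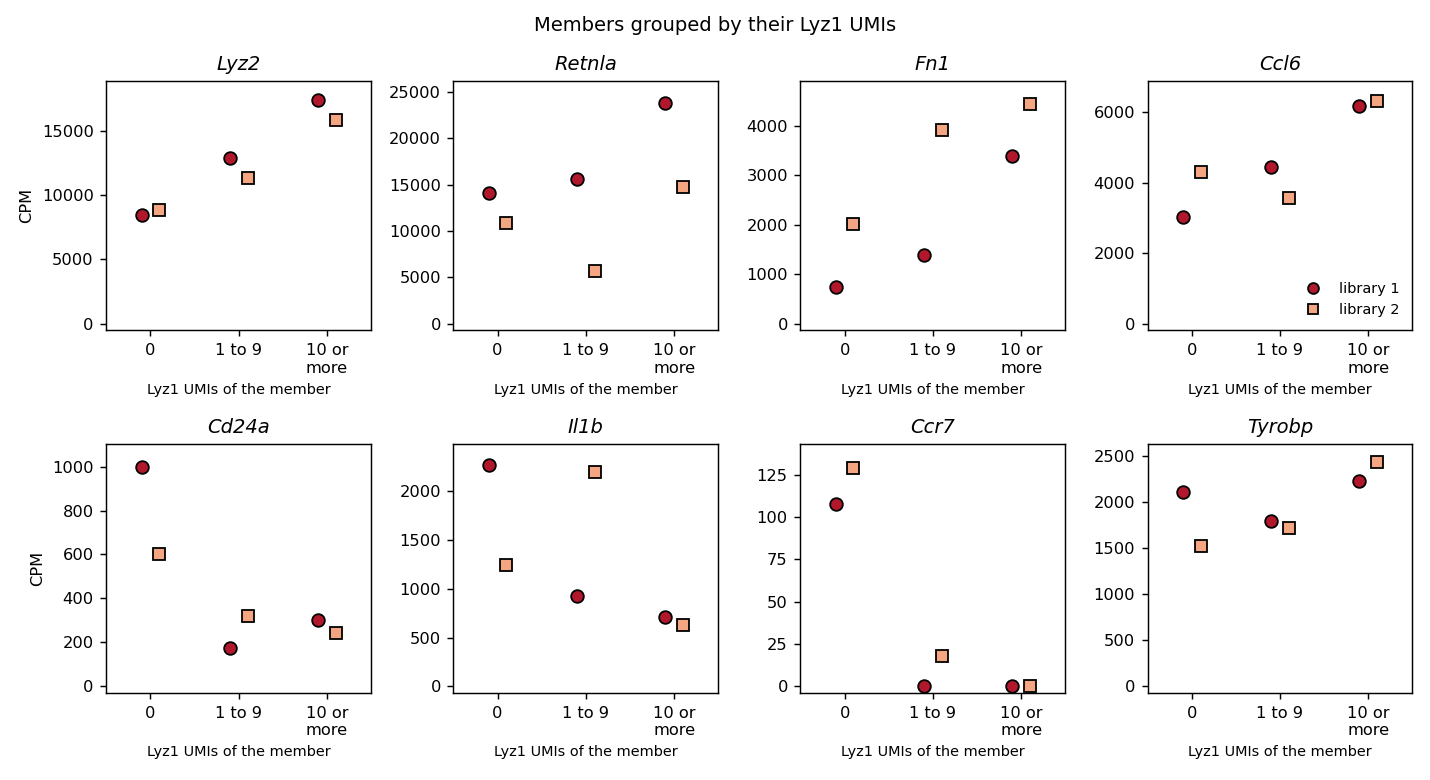
CPM of 8 genes in members with 0, 1 to 9, and 10 or more Lyz1 UMIs, 1 point per library. In this order the points hold 11, 3 and 24 members in library 1 and 8, 17 and 13 in library 2. Lyz2, Fn1 and Ccl6 are highest where Lyz1 is at least 10, Cd24a and Ccr7 are highest where Lyz1 is 0, and Tyrobp, a general myeloid signalling adaptor, varies between 1524 and 2434 CPM.

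Members with and without Mmp12, another rule gene, are described in the same way. The 13 members with an Mmp12 UMI (6 and 7 by library) had 2962 and 3637 CPM of Fn1, against 2316 and 3586 CPM in those without (32 and 31). Slc7a11 had 1160 and 596 CPM in members with Mmp12, against 562 and 799 CPM in those without, so the libraries disagreed. Cd24a had 61.1 and 149 CPM in members with Mmp12, against 585 and 421 CPM in those without. Ccr7 had 0 in both libraries of members with Mmp12, against 39.0 and 51.8 CPM in those without. Ccl24, a chemokine for eosinophils, had 702 and 1222 CPM in members with Mmp12, against 389.7 and 185 CPM in those without. Cd24a and Ccr7 were thus lower and Ccl24 higher with Mmp12 in both libraries, from 6 and 7 members. Few members held many cell cycle transcripts: 4 in library 1 and 0 in library 2 had at least 5 UMIs of 12 cell cycle genes. The 38 members of library 1 held 121 such UMIs, of which 1 member held 35.5%, and those of library 2 held 16, with at most 3 in a member.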

How the data were processed

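Single cells of 2 mouse mesenteries were captured as 2 libraries. The authors deposited whole-number UMI counts for every gene in each barcode, per the file headers, with no normalization; the submitters' processing notes name Cell Ranger and the build mm10, without a version. The table holds 27998 genes and 3204 barcodes, and the number at the end of a barcode was read as the library's number. Barcodes with under 200 genes or over 10% mitochondrial UMIs were removed (33 and 28). Each gate's counts were summed per library and tested with edgeR 4.0.16 (quasi-likelihood F-test, TMM, filterByExpr, Benjamini-Hochberg adjusted p under 0.05) in R 4.3.3, fitted on 3 gates with the mouse as a block. The SE of a fold change was not estimated directly but computed as its absolute value over the square root of the F statistic. Each mouse gave all 3 gates, and same-mouse deviations correlated at 0.143 to 0.169 over 2920 genes. The classes of a library come from 1 animal, and the block removes what they share. The p-values therefore rest on how the differences between classes varied over 2 animals, and do not measure the spread between animals. DESeq2 1.42.0 and the other settings described in the closing section were alternatives, and scripts were tested on simulated counts. Doublets were called with Scrublet in scanpy 1.11.5. For shares of barcodes with a UMI, each barcode was thinned by random draws, with Clopper-Pearson intervals from scipy 1.17.1.

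The members and gene lists were chosen with earlier results of these data known. Genes were named by rule: the 10 largest called changes in each direction per comparison (average log2 CPM at least 5), the 20 highest ratios to the rest, the 10 most like the rule genes, and up to 6 genes per list by level in members. Bhlhe40, Ccl2, Ccl5, Ccl17, Cd40, Cd86, Cxcl16, H2-DMb1, H2-Ob, Il4ra, Mgst1, Ms4a4c, Runx3, Tgfbr2 and the markers given at or near 0 were named after their values were seen. No gate for mesothelial cells held a barcode. A few genes that the rule would name are not reported here.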

Additional observations from a re-analysis of the deposited data

How the results depend on the processing

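The number of called genes against C1q-high macrophages (949) was 382 with DESeq2's Wald test and 591 when gates and test used separate random parts of the UMIs, where 1639 genes were tested. Against the dendritic gate (342) the same settings gave 140 and 182. Without a filter on low counts, 217 were higher and 139 lower than in the dendritic gate, against 146 and 196 with the filter. Without the pairing of classes by mouse as a block, 758 and 235 genes were called, all of them among the calls of the blocked fit. Without the block the calls of Ccl6, Cfp, Alox5ap, Gda and H2-Aa against macrophages and of Cfp, Ccdc109b, Csf2ra, Cd40 and H2-DMb1 against the dendritic gate were lost. With the split UMIs those of Ccl6, Cfp, Gda, Il6 and H2-Aa against macrophages and of Plin2, Rab11fip1, Pilra, Cfp, Ccl5, Ccl17 and H2-DMb1 against the dendritic gate were lost. Other limits on membership, C1q, depth, doublets and the added exclusions of members gave 768 to 1020 and 295 to 386 calls. Of 77 genes called against the dendritic gate and followed across settings, 10 lost their call at a membership sum of at least 3. At a dendritic gate sum of at least 3, 8 of the 74 then tested lost it, and with the split UMIs 10 of 58. Apoe against the dendritic gate stood at 0.72 and was not called, and at -3.57, where it was called, with the split UMIs; the cause was not tested. No called gene named in the text changed direction under any setting in which it was tested. The share of members stayed at 2.29 to 2.76% in library 1 and 2.05 to 2.53% in library 2. Leaving out 1 of the 2 libraries leaves no residual degrees of freedom, so the values of each library are given in place of a test. With 76 members, a gene under about 3 UMIs in a class cannot be told from 0.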
